A study of Homo sapiens with 4 samples.

Results

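The genes of the 26S proteasome, together with NFE2L1, the transcription factor that drives their expression, were examined in PC3 cells. The members were the rows of the deposited TPM table whose symbol was PSMA, PSMC, PSMD, PSME, PSMF or PSMG followed by a number, PSMB1 to PSMB7, POMP, ADRM1 or NFE2L1, with no pseudogene or antisense suffix. This rule found 47 of the 43622 genes in the table, and it used symbols only, not measured values. PC3 is a human prostate adenocarcinoma cell line, and total RNA was sequenced in 4 conditions with 3 libraries each. Ctrl libraries came from PC3 cells given the vehicle DMSO, and MLN libraries from PC3 cells given 1 µM MLN4924, in each case for 3 days. MLN4924 inhibits the NEDD8-activating enzyme and so blocks NEDDylation, the attachment of NEDD8 that cullin-RING ubiquitin ligases need for their activity. The shARF and Both libraries came from PC3-shp14ARF cells, which carry a stable retroviral shRNA against the tumour suppressor p14ARF and were selected with hygromycin, given DMSO (shARF) or 1 µM MLN4924 (Both) for 3 days. No control shRNA line was named, so depletion of p14ARF and the making of the line cannot be told apart. The series text calls the modified line a knockout and gives the dose in mM, whereas the sample labels call it ShARF and give µM, and the latter were used here. The comparisons ask how proteasome mRNAs respond to NEDDylation inhibition, to p14ARF depletion, and to the drug once p14ARF is depleted.

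The proteasome degrades proteins that carry ubiquitin chains. Its 20S core is a stack of rings in which alpha subunits form the outer gate and beta subunits hold the peptidase sites, and the 19S regulatory particle on its ends is made of a base, whose ATPases unfold the substrate, and a lid, which removes the ubiquitin. Dedicated chaperones assemble each part. NFE2L1, also called NRF1, is a protein of the endoplasmic reticulum membrane that is normally degraded by the proteasome. When proteasome activity is short it is deglycosylated by NGLY1, cut by DDI2 and enters the nucleus, where it pairs with a small MAF protein on antioxidant response elements and raises many proteasome genes together. Since this control acts on the protein, NFE2L1 mRNA and NFE2L1 activity need not move together.

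All 12 libraries sum to 1000000 TPM (a level scaled for transcript length and library size), which keeps no record of the sequencing depth. Libraries of a condition resembled each other more than any library of another condition, with Spearman correlations across genes of at least 0.984 within a condition and at most 0.969 between conditions. The row of CDKN2A, the gene that encodes p14ARF and also p16INK4a, held 190.1, 183 and 177 TPM in Ctrl, 58.2, 58.7 and 60.9 in shARF, 100.4, 133 and 119 in MLN, and 47.2, 41.2 and 54 in Both, so the modified line was lower than PC3 with and without the drug. The epithelial markers KRT8, KRT18, KRT19 and EPCAM were present in every library (at least 18.3 TPM) but differed between conditions, KRT19 averaging 562 TPM in Ctrl and 189 in MLN and EPCAM 76.5 TPM in shARF and 19.8 in Both, whereas KLK2 and KLK3, markers of luminal prostate cells, were at or near 0 in every library. Of the other marker genes, the leukocyte genes PTPRC, CD3E and CD14 and the fibroblast gene DCN reached at most 0.797 TPM. The fibroblast list's COL1A1 (3.56 to 19.7 TPM) and PDGFRA (0.246 to 9.28 TPM) were measured in every library and differed between conditions, COL1A1 being highest in MLN and PDGFRA in Ctrl. The part of these marker differences in the results was not tested. Bulk RNA cannot tell fewer cells of a kind from less RNA per cell. Nothing states that the libraries came from separate cultures, so p-values measure the spread between these libraries, which may be technical.

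Most proteasome genes were higher in MLN4924-treated than in untreated PC3 cells, by a modest amount, and the summed level was highest there. The summed level of the 47 members was 8938 ± 156 TPM in Ctrl, 9799 ± 117 in shARF, 10884 ± 242 in Both and 11449 ± 283 in MLN (SD, n = 3), which is 0.894%, 0.980%, 1.09% and 1.14% of all TPM. The sum ran from 8773 to 9084 TPM in Ctrl, from 9680 to 9914 in shARF, from 10739 to 11163 in Both and from 11130 to 11671 in MLN, so that Both and MLN overlapped and the other conditions did not. PSMA8, the alpha subunit of the testis, had a mean below 0.1 TPM and was not tested, which left 46 members. With limma on log2(TPM + 0.1) and a call where the p-value adjusted over the 19932 genes passed 0.05, 30 members were higher and 4 were lower in MLN than in Ctrl, against 32.2% of all genes higher and 29.4% lower. Among genes whose mean was 10 TPM or more, which all 46 tested members had, 37.8% were higher and 37.5% lower. The members' median log2 fold change was 0.37, and that of all genes 0.052. PSMC3 was the single member called above a log2 fold change of 1, against 15.6% of all genes called above that size. Among the 9330 genes whose mean was 10 TPM or more, 1031 were called above it.

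**Figure D1:**
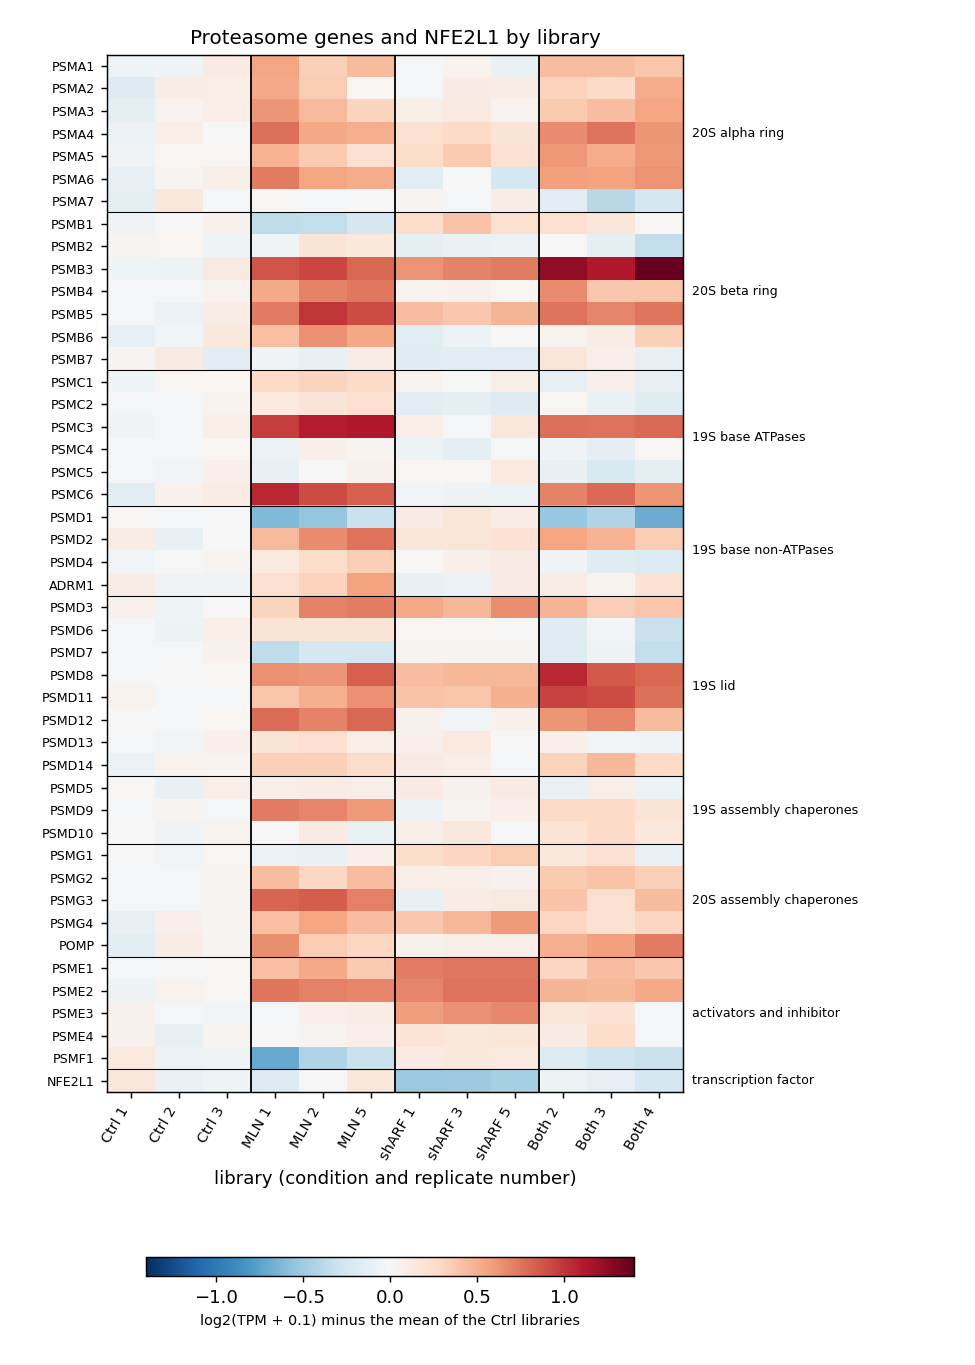
Heat map of the 46 tested members (rows, ordered by part of the proteasome) in the 12 libraries (columns), with colour showing log2(TPM + 0.1) minus the mean of the 3 Ctrl libraries. Most rows are redder in the MLN libraries, PSMB3 is the reddest in Both, and PSMD1 and PSMF1 are blue in both treated conditions.

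**Figure D2:**
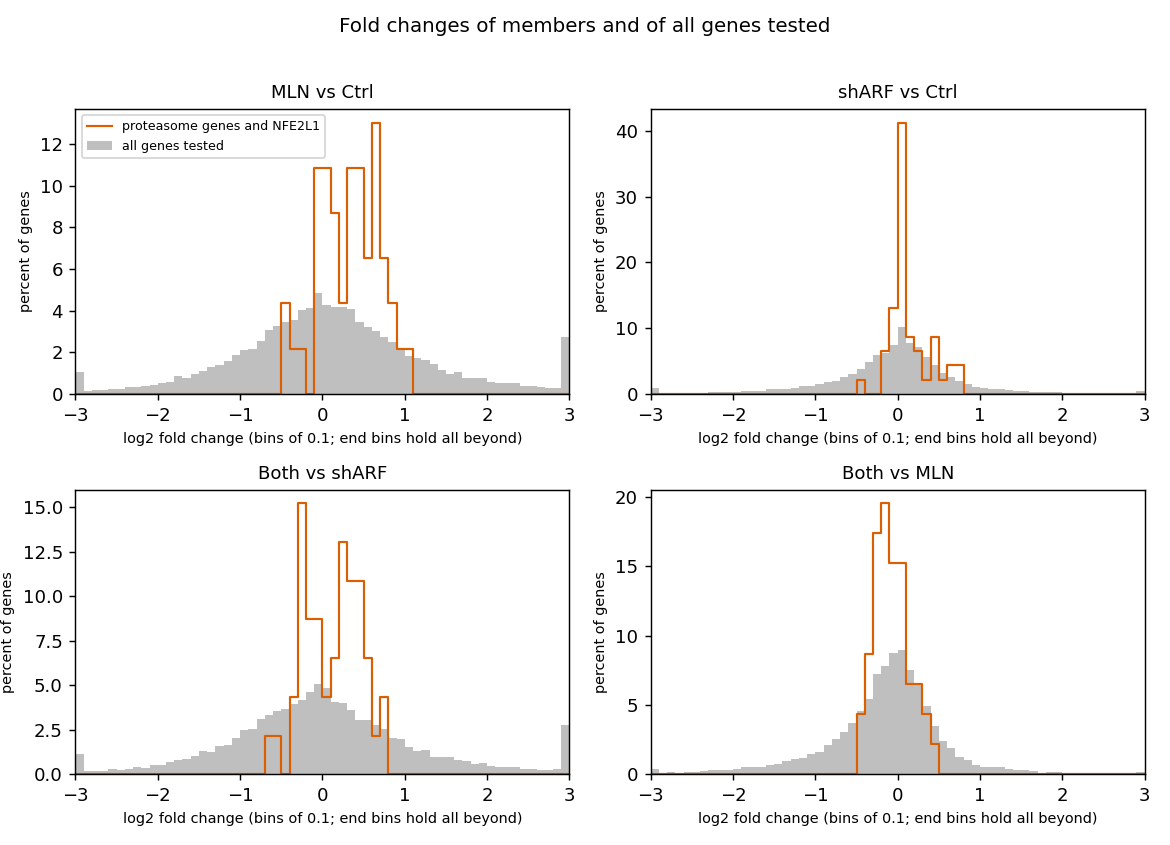
Distributions of log2 fold changes for the members (orange line) and for all 19932 genes tested (grey), in percent of genes per bin of 0.1, for 4 comparisons. In MLN vs Ctrl the members lie between -0.49 and 1.06 and mostly right of 0, inside the wider spread of all genes.

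In PC3-shp14ARF cells the response to MLN4924 was split, with 9 genes of the 20S rings higher and 4 of the 5 activator and inhibitor genes lower. Of the 46 members, 21 were higher and 10 lower in Both than in shARF, against 28.3% and 32.8% of all genes tested (33.2% and 42.7% of those whose mean was 10 TPM or more), and the median log2 fold change was 0.17 for members and -0.038 for all genes. Under median-of-ratios scaling, which moved the members' fold changes in this comparison by 0.096, the split was 26 higher and 5 lower. The shares were then 32.3% and 29.8% of all genes, and 39.1% and 38.3% of those whose mean was 10 TPM or more. The comparisons MLN vs Ctrl and Both vs shARF use different libraries, and 19 of 46 members (41.3%) were called higher in both, against 22% of all genes tested and 27.7% of those whose mean was 10 TPM or more. These were PSMA1, PSMA3, PSMA4, PSMA5, PSMA6, PSMB3, PSMB4, PSMB5, PSMC3, PSMC6, PSMD2, PSMD8, PSMD9, PSMD11, PSMD12, PSMD14, PSMG2, PSMG3 and POMP. PSMD1, PSMD7 and PSMF1 were called lower in both (6.52% of members, against 22.8% of all genes), and PSMD4, PSMG4, PSME1 and PSME2 were called higher in PC3 cells and lower in PC3-shp14ARF cells (8.7% of members, against 1.38% of all genes and 2.12% of those whose mean was 10 TPM or more). With median-of-ratios scaling PSMD4 (-0.11, adjusted p = 0.105) and PSMG4 (-0.12, adjusted p = 0.206) were not called lower there.

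**Figure D3:**
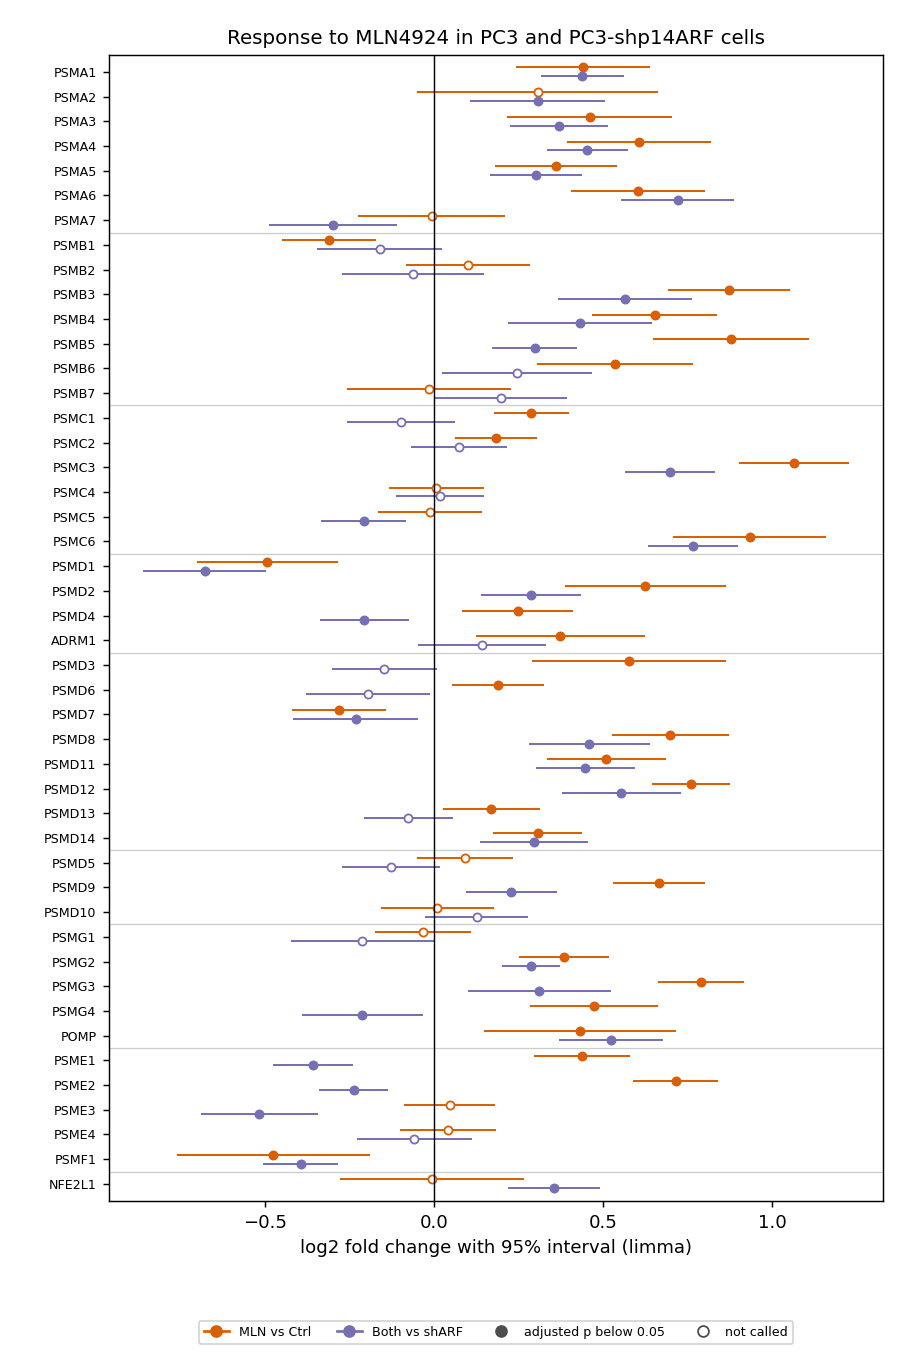
Log2 fold changes with 95% intervals from limma for MLN vs Ctrl (orange) and Both vs shARF (purple), for the 46 tested members; filled points passed an adjusted p of 0.05. Most pairs of points lie on the same side of 0. Of the pairs on opposite sides, those of PSME1, PSME2, PSMG4 and PSMD4 have both points filled. Others on opposite sides, such as PSMC1, PSMD3, PSMD6, PSME3 and NFE2L1, do not.

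NFE2L1 mRNA did not pass the test after MLN4924 in PC3 cells and was lower in untreated PC3-shp14ARF cells. The gene lies at chr17:48048329-48061545 on the plus strand (GENCODE annotation, GRCh38). Its levels in the 12 libraries were 388, 326 and 335 TPM in Ctrl, 243, 245 and 252 in shARF, 309, 347 and 389.9 in MLN, and 331, 323 and 294 in Both. The range of the MLN libraries contained that of Ctrl, whereas every shARF library was below every library of the other conditions. Means were 349.6 ± 33.9 TPM in Ctrl and 349 ± 40.6 TPM in MLN (SD, n = 3), and the log2 fold change of -0.0063 had a 95% interval of -0.28 to 0.26 (adjusted p = 0.973). Without the drug, p14ARF-depleted cells held 0.708 times the Ctrl level (log2 fold change -0.50, SE 0.073, adjusted p = 0.00468). Given the drug, these cells rose by 1.28-fold over shARF (log2 fold change 0.35, SE 0.054, adjusted p = 0.00184), and Both did not pass the test against MLN (log2 fold change -0.14, SE 0.10, adjusted p = 0.350). The difference between the responses of the lines was 0.36 (95% interval 0.084 to 0.64) and narrowly missed the threshold (adjusted p = 0.0518). It passed without Ctrl replicate 2, MLN replicate 5 or Both replicate 4 (adjusted p 0.0171 to 0.0459) and under median-of-ratios scaling (0.46, adjusted p = 0.00651).

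**Figure D4:**
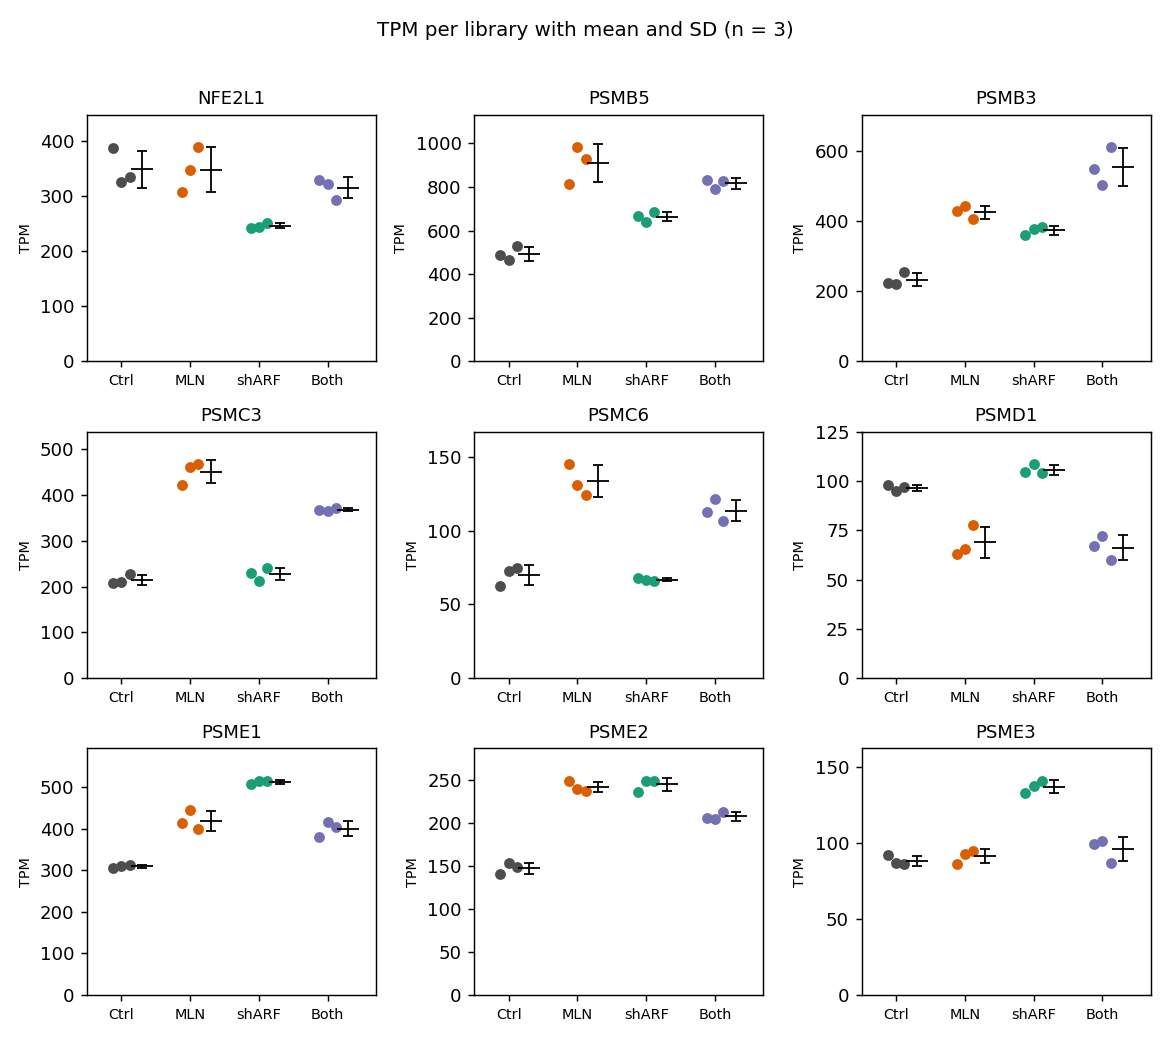
TPM of 9 members in each library (points, by condition) with the mean and SD of 3 libraries (bars), on linear axes from 0. NFE2L1 is lowest in shARF, PSMB3 is highest in Both, and PSME1 and PSME3 are highest in shARF.

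The promoters of some members carried the core letters of the antioxidant response element that NFE2L1 with a small MAF can bind, and these stretches are shown because such elements are where NFE2L1 is known to act on proteasome genes. The 250 bases before the RefSeq start (GRCh38.p14) were searched on both strands in the 41 of 47 members with an entry. TGACNNNGC was found in 11 of 41 (26.8%), against 11% of all 27305 RefSeq promoters of the same length. The full TGACTCAGC was found in 0 of 41, against 0.465% of all promoters, and its 9 letters can be part of a TGACNNNGC match. CCAAT was found in 18 of 41 (43.9%), against 33%. Of the 11 members with TGACNNNGC, 8 were called higher in MLN vs Ctrl, with a median log2 fold change of 0.44, and of the 29 tested members with an entry but no match, 19 were called higher, with a median of 0.31. In Both vs shARF the medians were -0.058 with the match and 0.29 without it, so the order of the medians was not the same in the other line. The matching windows that overlap no exon in GENCODE are printed 5′ to 3′ on the strand of the gene, with the match in capitals; the other 5 members with a match are PSMD5, PSMD9, PSMG2, PSME2 and PSME4.
PSMB3 (chr17:38752612-38752670, plus strand): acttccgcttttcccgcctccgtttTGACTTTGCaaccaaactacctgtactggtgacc
ADRM1 (chr20:62302734-62302792, plus strand): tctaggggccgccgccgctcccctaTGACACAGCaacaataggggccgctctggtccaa
PSMD3 (chr17:39980745-39980803, plus strand): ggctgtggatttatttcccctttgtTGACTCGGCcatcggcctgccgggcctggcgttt
PSMD12 (chr17:67366709-67366767, minus strand): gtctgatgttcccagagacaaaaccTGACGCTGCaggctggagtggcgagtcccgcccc
PSMG1 (chr21:39183601-39183659, minus strand): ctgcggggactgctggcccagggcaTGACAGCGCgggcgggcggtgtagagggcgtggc
PSME1 (chr14:24136083-24136141, plus strand): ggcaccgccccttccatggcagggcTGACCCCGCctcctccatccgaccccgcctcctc
A match describes letters in this window and is not shown here to be a bound site. The ADRM1 window lies before the RefSeq start but inside the span that GENCODE gives this gene (chr20:62302093-62308862), between its exons.

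Most genes of the alpha ring, which gates the 20S core, were higher with MLN4924 in either line. Of its 7 tested genes, 5 were higher in MLN than in Ctrl (PSMA1, PSMA3, PSMA4, PSMA5 and PSMA6), and PSMA2 and PSMA7 were not called. In Both vs shARF the same 5 genes and PSMA2 were higher and PSMA7 was lower. PSMA4 (chr15:78540405-78552417, plus strand), with the largest fold change of the ring in PC3 cells, held 85.1, 95 and 89.5 TPM in Ctrl, 105, 108 and 102 in shARF, 153, 130.2 and 128 in MLN, and 142, 152 and 138 in Both. The drug-treated groups lay above the DMSO groups without overlap. The log2 fold change was 0.61, SE 0.085, adjusted p = 0.00126 in MLN vs Ctrl and 0.45, SE 0.047, adjusted p = 0.000371 in Both vs shARF. PSMA6 (chr14:35278633-35317493, plus strand) showed the ring's largest rise in p14ARF-depleted cells. Its levels were 185, 205 and 211 TPM in Ctrl, 181, 199.8 and 169.5 in shARF, 332, 295 and 288 in MLN, and 299, 296 and 309.8 in Both, with every drug-treated library above every DMSO library. It rose by 1.52-fold in PC3 cells (log2 fold change 0.60, SE 0.080, adjusted p = 0.000982) and by 1.65-fold in PC3-shp14ARF cells (log2 fold change 0.72, SE 0.066, adjusted p = 0.000221). PSMA5 (chr1:109399042-109426448, minus strand) was the alpha gene that differed most between the untreated lines, with 117, 123 and 123 TPM in Ctrl, 145, 156 and 140.0 in shARF, 169, 156 and 142 in MLN, and 185, 173 and 185 in Both. Here shARF lay above Ctrl without overlap (log2 fold change 0.28, SE 0.049, adjusted p = 0.00848), and Both was above all other libraries (log2 fold change 0.30, SE 0.054, adjusted p = 0.00375 against shARF). PSMA4 was also higher in shARF than in Ctrl (log2 fold change 0.23, SE 0.047, adjusted p = 0.0156), but that call was lost without Ctrl replicate 3, shARF replicate 1 or shARF replicate 3 (adjusted p 0.0543 to 0.0556) and with median-of-ratios scaling (adjusted p = 0.0642). PSMA1 and PSMA3 rose by 0.44 and 0.46 in log2 units in PC3 cells and by 0.44 and 0.37 in the depleted line.

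PSMA7 and PSMA2, the most and least abundant of the ring's tested genes, stood apart from that pattern. PSMA7 had the highest Ctrl level of all members, 799 ± 82.6 TPM, which is 10.9 times the 73.5 ± 7.65 TPM of PSMA2 (SD, n = 3), although the ring holds these subunits in equal number. PSMA7 showed an estimate of -0.0066 for MLN vs Ctrl (95% interval -0.22 to 0.21) and was lower in Both than in shARF (log2 fold change -0.30, SE 0.076, adjusted p = 0.0154). That call was lost without shARF replicate 1 or shARF replicate 5 (adjusted p 0.0530 to 0.0561) and with median-of-ratios scaling (adjusted p = 0.0711). PSMA2 was called in Both vs shARF (log2 fold change 0.31, SE 0.080, adjusted p = 0.0171) but not without shARF replicate 1 (adjusted p = 0.0619). In MLN vs Ctrl its estimate was of like size with a wider interval, 0.31 (-0.047 to 0.66), and it was called without MLN replicate 5 (adjusted p = 0.0258). PSMA8 held 0, 0 and 0 TPM in Ctrl, 0, 0 and 0 in shARF, 0.234, 0.159 and 0.0796 in MLN, and 0.158, 0 and 0 in Both.

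In MLN vs Ctrl the beta ring held the largest rises of the 20S core, and of its 3 catalytic genes PSMB5 and PSMB6 were called higher and PSMB7 was not. PSMB3, PSMB4, PSMB5 and PSMB6 were higher in MLN than in Ctrl, PSMB1 was lower, and PSMB2 and PSMB7 were not called. PSMB5 (chr14:23016543-23035230, minus strand) encodes the chymotrypsin-like subunit, the main target of bortezomib. Its levels were 486, 466 and 528 TPM in Ctrl, 667, 641 and 684 in shARF, 813, 983 and 929.7 in MLN, and 833, 789 and 827 in Both. Ctrl was lowest, shARF lay between, and the drug-treated groups were above shARF and overlapped each other. PSMB5 rose 1.84-fold in PC3 cells (log2 fold change 0.88, SE 0.093, adjusted p = 0.000384) and 1.23-fold in p14ARF-depleted cells (log2 fold change 0.30, SE 0.050, adjusted p = 0.00289), from a baseline that was already 1.35-fold above Ctrl (log2 fold change 0.43, SE 0.057, adjusted p = 0.00340). PSMB6 (chr17:4796144-4798502, plus strand), the caspase-like subunit, held 268, 285 and 324 TPM in Ctrl, 261, 274 and 291 in shARF, 391, 456 and 423 in MLN, and 300.4, 313 and 368 in Both. The MLN libraries were above all others, and Both overlapped Ctrl but not shARF. It was higher in MLN than in Ctrl (log2 fold change 0.54, SE 0.093, adjusted p = 0.00321), while Both vs shARF narrowly missed the threshold (log2 fold change 0.25, SE 0.089, adjusted p = 0.0548) and was called without Both replicate 2 (adjusted p = 0.0447) and with median-of-ratios scaling (adjusted p = 0.0256). PSMB7 (chr9:124353465-124415444, minus strand), the trypsin-like subunit, held 609, 647 and 534 TPM in Ctrl, 529.8, 534 and 538 in shARF, 576, 552 and 642 in MLN, and 669, 625 and 550.0 in Both. Its MLN and Ctrl libraries overlapped, and the estimate was -0.015 with a 95% interval of -0.25 to 0.22, against 0.65 to 1.11 for PSMB5. Every Both library of PSMB7 was above every shARF library, but Both vs shARF was not called (log2 fold change 0.20). That comparison was called with median-of-ratios scaling (0.29, adjusted p = 0.0112), with a filter at 1 TPM (adjusted p = 0.0418) and without Both replicate 4 (adjusted p = 0.00623).

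PSMB3 (chr17:38752741-38764225, plus strand), a structural beta subunit, rose under each perturbation. It held 223, 221 and 254 TPM in Ctrl, 359.8, 376 and 384 in shARF, 429, 442 and 405 in MLN, and 548, 503 and 611 in Both, and the 4 conditions formed 4 separate ranges in the order Ctrl, shARF, MLN and Both. The log2 fold change was 0.87, SE 0.072, adjusted p = 0.000140 in MLN vs Ctrl, 0.69, SE 0.064, adjusted p = 0.00113 in shARF vs Ctrl and 0.57, SE 0.079, adjusted p = 0.00128 in Both vs shARF. Both was also above MLN (log2 fold change 0.38, SE 0.089, adjusted p = 0.0230), a call lost without MLN replicate 1, MLN replicate 2, MLN replicate 5 or Both replicate 2 (adjusted p 0.0541 to 0.0742). PSMB4, another structural subunit, rose in both lines (0.65 in PC3 and 0.43 in PC3-shp14ARF). PSMB1 went the other way, with 285, 294 and 308 TPM in Ctrl, 354, 391 and 346 in shARF, 232, 233 and 250.4 in MLN, and 344, 333 and 299.7 in Both. It fell in MLN vs Ctrl (log2 fold change -0.31, SE 0.056, adjusted p = 0.00360) and was higher in shARF than in Ctrl (log2 fold change 0.30, SE 0.059, adjusted p = 0.0128), with none of these 3 groups overlapping. PSMB2 had log2 fold changes of 0.10 and -0.061 in the 2 drug comparisons, neither called. In MLN vs Ctrl it was called higher without MLN replicate 1 (0.17, adjusted p = 0.0319).

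Assembly of the 20S core depends on POMP, which matures the beta subunits, and on the pairs PSMG1 with PSMG2 and PSMG3 with PSMG4, which build the alpha ring. Of these 5 genes, all but PSMG1 were higher in MLN than in Ctrl. POMP (chr13:28659065-28678959, plus strand) held 159, 189 and 181 TPM in Ctrl, 184, 187 and 187 in shARF, 276, 225 and 216 in MLN, and 251, 261 and 292 in Both. Every drug-treated library was above every DMSO library, and MLN had the widest spread. POMP rose by 1.35-fold in PC3 cells (log2 fold change 0.43, SE 0.11, adjusted p = 0.0177), a call lost without Ctrl replicate 1 (adjusted p = 0.0591), and by 1.44-fold in the depleted line (log2 fold change 0.52, SE 0.062, adjusted p = 0.000622). PSMG3 (chr7:1567332-1571005, minus strand) had the largest change of the group in PC3 cells. It held 63.4, 64.1 and 66.3 TPM in Ctrl, 60.2, 69.4 and 70.6 in shARF, 113, 117 and 106 in MLN, and 85.1, 75.7 and 87.6 in Both, so that MLN stood above Both and Both above the DMSO groups. The rise was 0.79 on the log2 scale in PC3 cells (adjusted p = 5.28e-05) and 0.31 in the depleted line (adjusted p = 0.0205), and the latter was not called without shARF replicate 1, Both replicate 2 or Both replicate 4 (adjusted p 0.0510 to 0.0720). PSMG4 (chr6:3231403-3303373, plus strand), the least abundant tested member, held 9, 10.2 and 10.0 TPM in Ctrl, 12.7, 13.4 and 14.8 in shARF, 13.1, 14.3 and 13.2 in MLN, and 11.9, 11.3 and 12 in Both. Ctrl was below every other library, and Both lay below MLN and shARF. PSMG4 was higher than Ctrl with the drug (log2 fold change 0.47, SE 0.076, adjusted p = 0.00227) and with p14ARF depletion (log2 fold change 0.48, SE 0.081, adjusted p = 0.00746), and lower in Both than in shARF (log2 fold change -0.21, SE 0.072, adjusted p = 0.0440). The last call was lost without shARF replicate 3, shARF replicate 5, Both replicate 2, Both replicate 3 or Both replicate 4 (adjusted p 0.0736 to 0.111) and with median-of-ratios scaling (adjusted p = 0.206), no filter (0.0580) or no trend (0.0610). PSMG2 rose in both lines (log2 fold changes 0.38 and 0.29). PSMG1 was higher in shARF than in Ctrl (log2 fold change 0.30, SE 0.033, adjusted p = 0.00178) and had an estimate of -0.032 in MLN vs Ctrl (adjusted p = 0.652). In Both vs shARF its log2 fold change was -0.21 and not called. It was called lower there with a filter at 1 TPM (adjusted p = 0.0416), in 1 fit to all libraries (0.0273) and without Both replicate 3 (0.0427).

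Among the 6 ATPases of the 19S base, which unfold substrates and open the gate, PSMC3 and PSMC6 rose far more than the others. PSMC3 (chr11:47418769-47426473, minus strand) held 208, 210.2 and 228 TPM in Ctrl, 229, 213 and 240.2 in shARF, 422, 461 and 468 in MLN, and 366, 365 and 372 in Both. The MLN libraries were highest, the Both libraries were next, and shARF overlapped Ctrl. Its 2.09-fold rise in PC3 cells was the largest of all members (log2 fold change 1.06, SE 0.065, adjusted p = 4.43e-05), and in the depleted line it rose 1.62-fold (log2 fold change 0.70, SE 0.053, adjusted p = 9.87e-05). PSMC6 (chr14:52707178-52728590, plus strand), the least abundant ATPase in Ctrl, held 62.6, 72.7 and 74.9 TPM in Ctrl, 67.8, 66.4 and 65.8 in shARF, 146, 131 and 124 in MLN, and 113, 122 and 107 in Both. Again MLN was highest, Both came next and the DMSO groups overlapped. PSMC6 rose 1.91-fold (log2 fold change 0.93, SE 0.092, adjusted p = 0.000278) and 1.70-fold (log2 fold change 0.77, SE 0.053, adjusted p = 6.86e-05) in the 2 lines. PSMC2 (chr7:103328570-103370346, plus strand) moved little, with 158, 159 and 167 TPM in Ctrl, 145, 147 and 142 in shARF, 177, 183 and 189 in MLN, and 164, 151 and 143 in Both. It was above Ctrl in MLN (log2 fold change 0.18, SE 0.048, adjusted p = 0.0169) and below Ctrl in shARF (log2 fold change -0.15, SE 0.031, adjusted p = 0.0145), each without overlap. The former call was lost without Ctrl replicate 1 or Ctrl replicate 2 (adjusted p 0.0521 to 0.0558), and the latter without shARF replicate 1 (adjusted p = 0.0530). PSMC1 rose in PC3 cells (log2 fold change 0.29, SE 0.044, adjusted p = 0.00183) and had an estimate of -0.10 in the depleted line (95% interval -0.26 to 0.058). It was called lower in that line without Both replicate 3 (-0.16, adjusted p = 0.0181). PSMC4 and PSMC5 had intervals of -0.13 to 0.14 and -0.16 to 0.14 around 0 in MLN vs Ctrl, and PSMC5 was lower in Both than in shARF (log2 fold change -0.21, SE 0.050, adjusted p = 0.0125), a call lost under median-of-ratios scaling (adjusted p = 0.109).

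The 4 other base genes encode the scaffolds PSMD1 and PSMD2 and the ubiquitin receptors PSMD4 and ADRM1, and the scaffolds moved in opposite directions. PSMD2 (chr3:184299198-184309050, plus strand) held 249, 216 and 231 TPM in Ctrl, 260.1, 261 and 266 in shARF, 318, 365 and 393 in MLN, and 341, 325 and 296 in Both. The MLN libraries were above all Ctrl and shARF libraries, and the Both libraries were above shARF. It rose by 1.54-fold in PC3 cells (log2 fold change 0.63, SE 0.096, adjusted p = 0.00182) and by 1.22-fold in the depleted line (log2 fold change 0.29, SE 0.059, adjusted p = 0.00652). PSMD1 (chr2:231056845-231173116, plus strand) held 98.2, 95.1 and 96.9 TPM in Ctrl, 105, 109 and 104 in shARF, 63.1, 65.7 and 77.9 in MLN, and 67, 72.1 and 59.8 in Both. Each drug-treated library was below each DMSO library, and shARF was slightly above Ctrl (log2 fold change 0.13, adjusted p = 0.014), a call lost in 1 fit to all libraries (adjusted p = 0.233). PSMD1 fell to 0.710 times the Ctrl level (log2 fold change -0.49, SE 0.084, adjusted p = 0.00286) and to 0.625 times the shARF level (log2 fold change -0.68, SE 0.072, adjusted p = 0.000408). Its exons overlap HTR2B on the opposite strand. The receptors rose in PC3 cells, PSMD4 by 0.25 (adjusted p = 0.0175) and ADRM1 by 0.37 (adjusted p = 0.0189) in log2 units. Those calls were lost without Ctrl replicate 1, Ctrl replicate 2 or MLN replicate 2 (adjusted p 0.0562 to 0.0588) for PSMD4 and without Ctrl replicate 2 or Ctrl replicate 3 (adjusted p 0.0665 to 0.0692) for ADRM1. In the depleted line PSMD4 was lower (log2 fold change -0.21, SE 0.052, adjusted p = 0.0155), which was lost without shARF replicate 3 or shARF replicate 5 (adjusted p 0.0507 to 0.0533) and with median-of-ratios scaling (adjusted p = 0.105). ADRM1 was not called there (0.14). It was called higher with median-of-ratios scaling (0.24, adjusted p = 0.0398) and without shARF replicate 5 (0.21, adjusted p = 0.0379).

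Of the 8 members in the 19S lid, which removes ubiquitin chains, 7 were higher and PSMD7 was lower in MLN than in Ctrl. The shares were 32.2% and 29.4% of all genes tested, and 37.8% and 37.5% of those whose mean was 10 TPM or more. SEM1, a lid gene that is not a member by the rule, overlapped between Ctrl (34.3 to 41.4 TPM) and MLN (37.0 to 39.9 TPM). Among the lid members, PSMD12 (chr17:67337916-67366605, minus strand) changed most, with 95, 92.7 and 96.2 TPM in Ctrl, 98.9, 92.4 and 98.7 in shARF, 163, 153 and 165 in MLN, and 145, 152 and 129 in Both. Its drug-treated groups lay above the DMSO groups, which overlapped each other. The rise was 1.69-fold in PC3 cells (log2 fold change 0.76, SE 0.046, adjusted p = 4.32e-05) and 1.47-fold in the depleted line (log2 fold change 0.55, SE 0.070, adjusted p = 0.000852). PSMD3 (chr17:39980807-39997959, plus strand) had the lid's largest response to p14ARF depletion. It held 93.1, 85 and 88.9 TPM in Ctrl, 129, 123 and 139.8 in shARF, 111, 144 and 147 in MLN, and 124, 113 and 116 in Both, where Ctrl was below all other libraries and the other 3 groups overlapped. PSMD3 was higher in MLN (log2 fold change 0.58, SE 0.12, adjusted p = 0.00584) and in shARF (log2 fold change 0.55, SE 0.060, adjusted p = 0.00175) than in Ctrl, and not called in Both vs shARF (log2 fold change -0.15, SE 0.062, adjusted p = 0.0857). PSMD8 and PSMD11 rose with the drug in PC3 cells (0.70 and 0.51), with depletion (0.45 and 0.43) and with the drug in depleted cells (0.46 and 0.45). PSMD14, the deubiquitinase of the lid, rose by 0.31 in PC3 cells (adjusted p = 0.00291) and by 0.29 in the depleted line (adjusted p = 0.00826). PSMD7, the partner that PSMD14 forms a dimer with, fell by 0.28 (adjusted p = 0.00561) and by 0.23 (adjusted p = 0.0356), and the latter was lost without shARF replicate 1, shARF replicate 3, shARF replicate 5 or Both replicate 2 (adjusted p 0.0771 to 0.0962) and with median-of-ratios scaling (adjusted p = 0.0941), no filter (0.0678) or no trend (0.0629).

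Among the lid members, the smallest changes in MLN vs Ctrl were those of PSMD6 and PSMD13. PSMD6 was 1.14-fold higher in MLN than in Ctrl (log2 fold change 0.19, SE 0.055, adjusted p = 0.0241), and the call was lost without Ctrl replicate 1, Ctrl replicate 2, MLN replicate 1, MLN replicate 2 or MLN replicate 5 (adjusted p 0.0522 to 0.0651) and in eBayes without trend (0.0539). PSMD13 was 1.12-fold higher (log2 fold change 0.17, SE 0.057, adjusted p = 0.0424), lost without Ctrl replicate 1, Ctrl replicate 2, MLN replicate 1 or MLN replicate 2 (adjusted p 0.0970 to 0.121). It was also lost with median-of-ratios scaling (adjusted p = 0.0571), with no filter on low values (0.0566) and in eBayes without trend (0.0909). In Both vs shARF their log2 fold changes were -0.20 and -0.076, neither called. PSMD6 was called lower there with a filter at 1 TPM (adjusted p = 0.0448), in 1 fit to all libraries (0.0261) and without Both replicate 3 (0.0134). The chaperones that assemble the 19S base were PSMD5, PSMD9 and PSMD10. PSMD9 (chr12:121888732-121918297, plus strand) held 18.6, 19.3 and 18.4 TPM in Ctrl, 17.9, 19.3 and 19.7 in shARF, 31.1, 30.1 and 28.3 in MLN, and 22.6, 22.5 and 21.5 in Both. MLN was highest, Both was next and the DMSO groups overlapped. It rose in PC3 cells (log2 fold change 0.67, SE 0.054, adjusted p = 0.000127) and less in the depleted line (log2 fold change 0.23, SE 0.053, adjusted p = 0.0112). PSMD5 and PSMD10 (gankyrin) were not called in either drug comparison, with intervals of -0.046 to 0.23 and -0.15 to 0.17 in MLN vs Ctrl. Their log2 fold changes in Both vs shARF were -0.13 and 0.13. There PSMD10 was called higher with median-of-ratios scaling (0.22, adjusted p = 0.0272), and PSMD5 was called lower without Both replicate 3 (-0.18, adjusted p = 0.00784).

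The activators of the 20S core included the members with the largest fold changes under p14ARF depletion. PSME1 and PSME2 form the interferon-inducible 11S cap, PSME3 forms a nuclear cap of the same family, PSME4 is a separate activator, and PSMF1 is a proteasome inhibitor in vitro. PSME1 (chr14:24136163-24138967, plus strand) held 307, 309.6 and 312 TPM in Ctrl, 508, 517 and 515 in shARF, 414, 446 and 399.6 in MLN, and 381, 418 and 404 in Both. Ctrl was lowest, MLN and Both overlapped above it, and shARF was highest. PSME2 (chr14:24143362-24147570, minus strand) held 141, 153 and 149 TPM in Ctrl, 236, 249 and 249 in shARF, 249, 240.0 and 238 in MLN, and 205, 204 and 213 in Both. Ctrl was again lowest, Both came next, and MLN and shARF overlapped above it. In shARF vs Ctrl the log2 fold change was 0.73, SE 0.023, adjusted p = 5.79e-05 for PSME1 and 0.73, SE 0.043, adjusted p = 0.000282 for PSME2. In MLN vs Ctrl it was 0.44, SE 0.057, adjusted p = 0.000906 for PSME1 and 0.71, SE 0.050, adjusted p = 7.08e-05 for PSME2. In depleted cells given the drug the pair fell, PSME1 by 0.36 (adjusted p = 0.00102) and PSME2 by 0.24 (adjusted p = 0.00286). PSME3 (chr17:42824385-42843760, plus strand) held 92, 86.7 and 86.1 TPM in Ctrl, 133, 138 and 141 in shARF, 86.3, 92.4 and 94.9 in MLN, and 99.5, 102 and 86.7 in Both, and the shARF libraries stood above all others, which overlapped. It was 1.55-fold higher in shARF than in Ctrl (log2 fold change 0.63, SE 0.039, adjusted p = 0.000321), lower in Both than in shARF (log2 fold change -0.52, SE 0.069, adjusted p = 0.00105), and not called in MLN vs Ctrl (0.047, 95% interval -0.085 to 0.18). PSME4 was higher in shARF (log2 fold change 0.17, SE 0.048, adjusted p = 0.0400), which was lost without Ctrl replicate 3, shARF replicate 1, shARF replicate 3 or shARF replicate 5 (adjusted p 0.0732 to 0.118), with no filter (0.0621), without trend (0.0657) and in 1 fit to all libraries (0.0585). PSMF1 fell with the drug in PC3 cells (log2 fold change -0.48, SE 0.12, adjusted p = 0.0123) and in depleted cells (log2 fold change -0.39, SE 0.044, adjusted p = 0.000476).

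Without the drug, depletion of p14ARF touched fewer members. In shARF vs Ctrl 15 of 46 were higher and 2 (PSMC2 and NFE2L1) were lower, against 21% and 20.4% of all genes tested, or 32.3% and 23.8% of genes whose mean was 10 TPM or more. The members' share called higher was close to that of genes at this level. The median log2 fold change was 0.075 for members and 0 for all genes. The 15 were PSMA4, PSMA5, PSMB1, PSMB3, PSMB5, PSMD1, PSMD3, PSMD8, PSMD11, PSMG1, PSMG4, PSME1, PSME2, PSME3 and PSME4, so that the activators and inhibitor gave 4 of their 5 genes. Leaving out Ctrl replicate 3 gave 4 lower members, and leaving out shARF replicate 1 gave 1.

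The interaction, (Both minus shARF) minus (MLN minus Ctrl) fitted on all 12 libraries, asked whether the drug response differed between the lines. Of 46 members, 14 were called below 0, against 17.1% of all genes tested and 25.1% of those whose mean was 10 TPM or more. None was called above 0 by limma, against 11.2% of all genes and 15.2% of those at this level, and 1 passed an unadjusted p of 0.05. That gene, NFE2L1, was the 1 called above 0 under median-of-ratios scaling, with a pseudocount of 1 TPM and with a filter at 1 TPM. The median was -0.19 for members and -0.085 for all genes, and -0.092 for members under median-of-ratios scaling. With that scaling 12 members (26.1%) were called below 0, against 14% of all genes and 19.9% of those whose mean was 10 TPM or more. The values of PSME2 (-0.95, SE 0.071, adjusted p = 2.69e-06), PSME1 (-0.80, SE 0.081, adjusted p = 2.52e-05) and PSMG4 (-0.68, SE 0.11, adjusted p = 0.000811) had the smallest adjusted p. PSMD3 (-0.72), PSMB5 (-0.58) and PSME3 (-0.56) came next in size among the rest. No alpha ring gene was called for the interaction, at intervals such as -0.22 to 0.21 for PSMA1 and -0.38 to 0.071 for PSMA4, and at an unadjusted p of 0.05 only PSMA7 of the ring passed. PSMC3, PSMC1, PSMD2, PSMD4, PSMD6, PSMD9, PSMD13 and PSMG3 had values between -0.48 and -0.25. For 2 of these genes the call depended on most of the 12 libraries. PSMD2 lost its call on leaving out any library other than Ctrl replicate 1, MLN replicate 1 or Both replicate 2 (adjusted p 0.0702 to 0.112), and PSMD13 on leaving out any other than Ctrl replicate 3, MLN replicate 5, shARF replicate 5 or Both replicate 2 (adjusted p 0.0712 to 0.109). These 2 calls were also lost with median-of-ratios scaling (adjusted p = 0.0833 and 0.258).

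**Figure D5:**
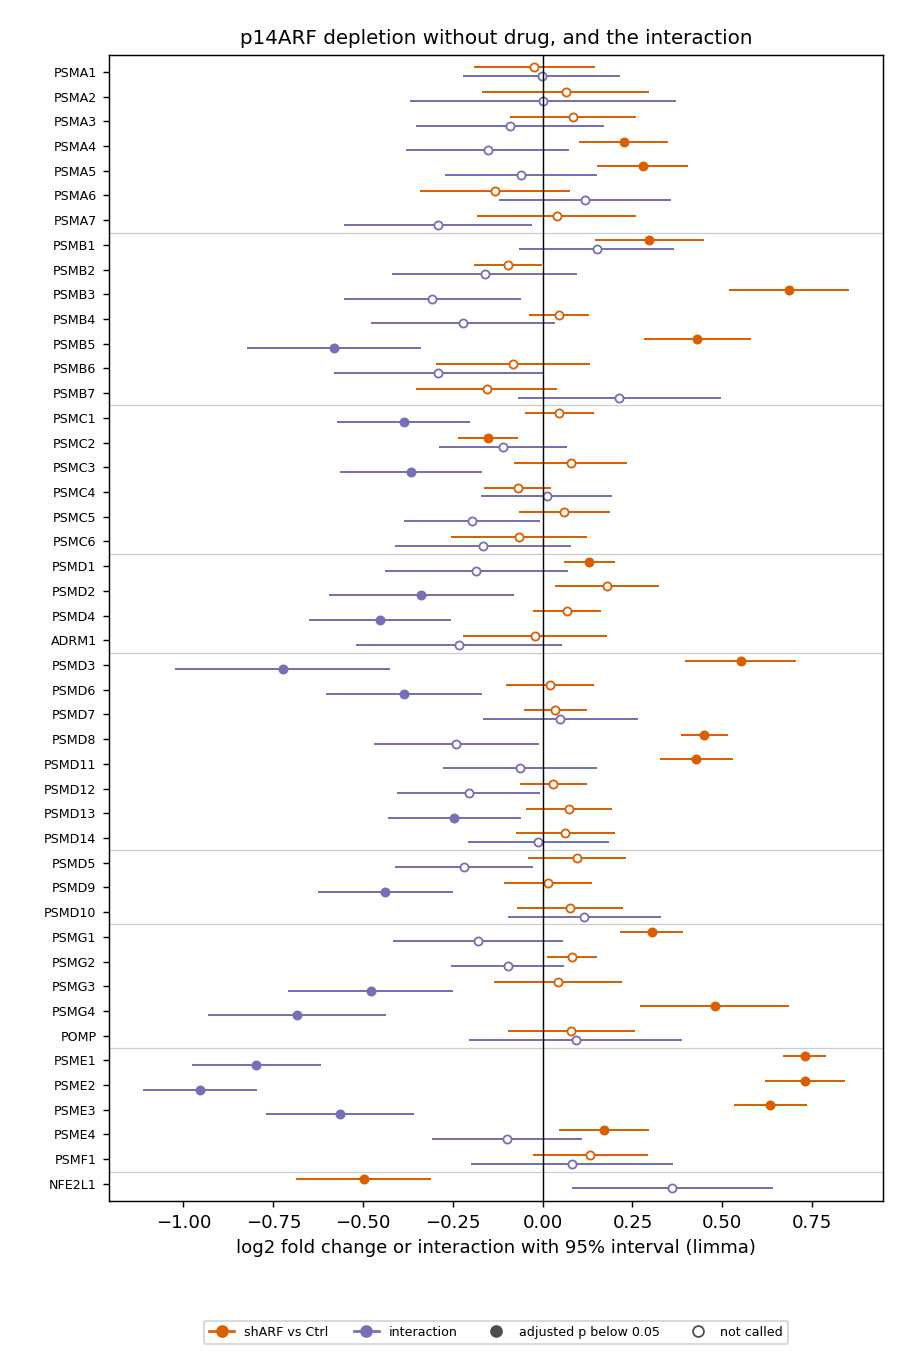
Log2 fold changes in shARF vs Ctrl (orange) and interaction terms (purple) with 95% intervals from limma, for the 46 tested members; filled points passed an adjusted p of 0.05. PSME1, PSME2 and PSME3 lie far right for depletion and far left for the interaction, and NFE2L1 lies on the reverse sides.

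The lines were also compared under MLN4924. In Both vs MLN 3 were higher (PSMB1, PSMB3 and PSMD11) and 9 lower (PSMB6, PSMC1, PSMC2, PSMC3, PSMD4, PSMD6, PSMD9, PSMG3 and PSME2), against 11.8% and 20.6% of all genes tested and 16.4% and 23.4% of those whose mean was 10 TPM or more, so the share called lower was close to the background. In 1 fit to all 12 libraries 6 members were higher and 15 lower. PSMB6, PSMC2 and PSME2 lost the call with median-of-ratios scaling (adjusted p 0.0625 to 0.126). The median was -0.096 for members and -0.080 for all genes. Under median-of-ratios scaling the split was 6 higher and 6 lower, while all genes moved the same way, to 18.4% higher and 17.4% lower. Genes whose mean was 10 TPM or more were then 27.4% higher and 18.4% lower. PSMB1 was 1.36-fold higher in Both (log2 fold change 0.45, SE 0.072, adjusted p = 0.00673), and PSMG3 (log2 fold change -0.44, SE 0.073, adjusted p = 0.00765) and PSMD9 (log2 fold change -0.42, SE 0.056, adjusted p = 0.00371) were the lower members whose calls held whichever library was left out. The other 9 calls were all lost without MLN replicate 2 (adjusted p 0.0526 to 0.119), which left 1 higher and 2 lower members, and leaving out Both replicate 2 left 1 higher and 4 lower.

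Other genes of the pathway were counted from a list of 46, of which 44 were tested. In MLN vs Ctrl 17 were higher and 17 lower, shares close to the 37.8% and 37.5% of genes whose mean was 10 TPM or more. In Both vs shARF 13 were higher and 14 lower, against 28.3% and 32.8% of all genes tested. DDI2, the protease that releases NFE2L1, held 10.9, 8.86 and 9.94 TPM in Ctrl, 10.0, 9.94 and 9.64 in shARF, 9.27, 9.79 and 9.56 in MLN, and 6.98, 7.56 and 5.84 in Both. Only the Both libraries stood below the rest, and DDI2 fell in Both vs shARF (log2 fold change -0.54, SE 0.10, adjusted p = 0.00533) but was not called in MLN vs Ctrl (-0.049, 95% interval -0.27 to 0.17). NGLY1 held 17.2, 17.8 and 18.5 TPM in Ctrl, 22, 21.8 and 21.3 in shARF, 13.5, 14.1 and 13.6 in MLN, and 19.9, 21.2 and 18.9 in Both. It was lower in MLN (log2 fold change -0.37, SE 0.054, adjusted p = 0.00140) and higher in shARF (log2 fold change 0.28, SE 0.037, adjusted p = 0.00309) than in Ctrl. The small MAF genes, which encode the binding partners of NFE2L1, changed by more than any member in each drug comparison. MAFG went from 61.8, 49 and 51.3 TPM in Ctrl to 280.3, 309 and 348 in MLN, and from 35.2, 37.6 and 37.5 in shARF to 255, 232 and 212 in Both. Its log2 fold change was 2.53 in MLN vs Ctrl (adjusted p = 1.77e-05) and 2.66 in Both vs shARF (adjusted p = 3.15e-06). In the same comparisons MAFF had log2 fold changes of 1.89 and 2.08, and MAFK of 2.06 and 2.11, all called higher. The small MAFs also pair with NFE2L2 and BACH1, so they are not specific to proteasome control.

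Further genes on the list moved in either direction. ZFAND2A, an arsenite-inducible protein that binds the 19S particle, rose by 2.04 in PC3 cells and 2.62 in the depleted line, in log2 units. AKIRIN2, which carries proteasomes into the nucleus, rose by 0.65 and 1.08. BACH1, a repressor at the same elements, rose by 0.57 and 1.32, and untreated depleted cells started from a lower level than Ctrl (log2 fold change -1.17). These 3 genes passed the test in each drug comparison. Among the 17 lower genes of MLN vs Ctrl, the largest falls after that of NFE2L3 were those of SEL1L (-0.90) and HERPUD1 (-0.66), which act in the degradation of endoplasmic reticulum proteins, of the ubiquitin shuttle UBQLN2 (-0.85) and of the ubiquitin ligase UBE3C (-0.70). In the depleted line SEL1L had no such fall, averaging 40.7 TPM in shARF and 45.6 in Both, against 68.6 in Ctrl. HERPUD1, UBQLN2 and UBE3C had lower means in Both than in shARF. NFE2L3, the closest relative of NFE2L1, fell from 156, 151 and 154 TPM in Ctrl to 45.3, 47.2 and 47.7 in MLN (log2 fold change -1.72, SE 0.041, adjusted p = 2.92e-06), and was 25.5, 27.3 and 25.4 TPM in shARF (log2 fold change -2.56, SE 0.037, adjusted p = 1.08e-05).

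The immunoproteasome genes PSMB8, PSMB9 and PSMB10, whose products replace PSMB5, PSMB6 and PSMB7 in cells exposed to interferon and are not members by the rule, were higher in MLN and in shARF than in Ctrl, as PSME1 and PSME2 were. PSMB8 held 70.6, 72.1 and 76.1 TPM in Ctrl, 142, 150.3 and 145 in shARF, 202, 202 and 183 in MLN, and 157, 172 and 166 in Both. PSMB9 held 6.51, 6.87 and 7.12 TPM in Ctrl, 19.2, 22.6 and 22.2 in shARF, 20.8, 24 and 18.5 in MLN, and 18.2, 15.9 and 20.8 in Both. PSMB10 held 38.8, 37.8 and 39.3 TPM in Ctrl, 55, 58.6 and 65.2 in shARF, 63.2, 75.4 and 63.5 in MLN, and 41.4, 35.3 and 49.7 in Both. Ctrl was lowest for PSMB8 and PSMB9, while the Both libraries of PSMB10 overlapped Ctrl. In MLN vs Ctrl the log2 fold changes were 1.42, 1.60 and 0.80, and in shARF vs Ctrl 1.00, 1.63 and 0.62. The interaction was -1.25, SE 0.081, adjusted p = 9.53e-07 for PSMB8, -1.83, SE 0.16, adjusted p = 8.84e-06 for PSMB9 and -1.31, SE 0.16, adjusted p = 9.86e-05 for PSMB10.

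Counting of reads sets a limit on some members. In GENCODE, 45 pseudogenes are named for 18 of the members, 13 of them for PSMC1 and 6 for PSME2, and reads shared with such copies could have been split between rows. The exons of 14 members overlap a gene of the table on the opposite strand, among them PSMD1, ADRM1, PSMD6, PSMG3, PSMG4, PSME1, PSME2, PSME3 and PSMF1, and whether the counting used the strand is not given in the sources used here. The part that such reads play in these results was not tested.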

How the data were processed

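Total RNA of 12 PC3 libraries was sequenced, and the authors mapped the reads and quantified genes in CLC Genomics Workbench against hg38 with Ensembl annotation. They deposited 1 table of TPM for 43622 genes, in which every library sums to 1000000, so counts, depth and counting error are unknown. GEO lists 1 sample per condition, and the 3 columns of a condition were used as its replicates. The column names number the replicates 1, 2 and 3 for Ctrl, 1, 2 and 5 for MLN, 1, 3 and 5 for shARF, and 2, 3 and 4 for Both. The 19932 genes whose mean over all libraries reached 0.1 TPM were tested with limma 3.58.1 (R 4.3.3; lmFit and eBayes with trend, two-sided) on log2(TPM + 0.1), a scale that understates the fold change of low genes. Pairwise comparisons used the 6 libraries of their groups and the interaction all 12. P-values were adjusted by Benjamini-Hochberg over all genes tested and called below 0.05, and the fit was tested on simulated data. Fold changes in the text are 2 to the power of the fitted log2 change. Alternatives were pseudocounts of 1 and 0.01 TPM, a filter at 1 TPM or none, median-of-ratios scaling, no trend, 1 fit to all libraries, a replicate block, and leaving out each library. Values by library are given for NFE2L1, POMP, the catalytic beta genes and, in each class, the called member with the largest change in MLN vs Ctrl, shARF vs Ctrl and Both vs shARF, and for PSME1. PSMB1 and PSMA8 were added after their values were seen. The members and lists were chosen with earlier results of these data known. Positions are from the GENCODE annotation of GRCh38, and promoters from RefSeq (GRCh38.p14, 41 of 47 members matched). In the pathway list, 45 of 46 genes were found in the table.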

Additional observations from a re-analysis of the deposited data

Results flagged for a closer look

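For 14 members the response to MLN4924 differed between PC3 and PC3-shp14ARF cells by the limma interaction test (12 libraries, adjusted p below 0.05), and all 14 differences were below 0. That is 30.4% of the tested members, against 17.1% of all genes tested and 25.1% of those whose mean was 10 TPM or more. With median-of-ratios scaling PSMD2 and PSMD13 were not called, and with the replicate block PSMC1, PSMC3, PSMD2, PSMD6 and PSMD13 were not (adjusted p 0.0595 to 0.404). In the activators, the interaction was -0.95 for PSME2, -0.80 for PSME1 and -0.56 for PSME3, in log2 units. PSME1 and PSME2 were called higher with the drug in PC3 cells and lower in the depleted line, while PSME3 was called in the depleted line only. In the 20S core and its chaperones it was -0.58 for PSMB5, -0.48 for PSMG3 and -0.68 for PSMG4. In the 19S base it was -0.39 for PSMC1, -0.37 for PSMC3, -0.34 for PSMD2 and -0.45 for PSMD4. In the lid it was -0.72 for PSMD3, -0.39 for PSMD6 and -0.25 for PSMD13, and the base chaperone PSMD9 had -0.44. Each is a difference of differences, so PSMB5, PSMC3, PSMD2, PSMD9 and PSMG3 still rose in each line.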

How the results depend on the processing

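Over the alternatives, 3358 values were recomputed for single members: 3130 kept their side of the threshold, 163 lost the call, 65 gained one and none changed direction while called. Leaving out 1 library at a time gave 25 to 30 higher and 4 to 4 lower members in MLN vs Ctrl (median log2 fold change 0.31 to 0.39), 13 to 17 higher and 1 to 4 lower in shARF vs Ctrl (0.049 to 0.10), 19 to 22 higher and 6 to 13 lower in Both vs shARF (0.14 to 0.21), 1 to 3 higher and 2 to 10 lower in Both vs MLN (-0.12 to -0.079), and 0 to 1 higher and 12 to 16 lower in the interaction (-0.23 to -0.14). The 6 lower members of Both vs shARF came without shARF replicate 5. Median-of-ratios scaling gave 5 lower members and a median of 0.27 in Both vs shARF, 6 higher members and a median of -0.0037 in Both vs MLN, and 1 higher member and a median of -0.092 in the interaction, and the interaction also had 1 higher member at a pseudocount of 1 TPM and with a filter at 1 TPM. Over all genes it moved the interaction split from 2229 higher and 3416 lower to 3217 and 2787. With 1 fit to all 12 libraries, 6 members were higher and 15 lower in Both vs MLN. The replicate numbers did not pair the libraries: over 10 pairs of libraries with a shared number, deviations from the group means correlated at -0.046 to 0.022. With the replicate block, MLN vs Ctrl had 8 higher and 1 lower members (17.4% and 2.17%, median 0.41). The shares were 15.3% and 13.4% of all genes, and 17.4% and 17.9% of those whose mean was 10 TPM or more. The members' share called higher was thus no larger than that of genes at this level. In the blocked interaction 10 members were lower (21.7%), against 8.09% of all genes and 12.2% of those at this level. The blocked shARF vs Ctrl fit had 0 and 0 members by limma at the adjusted threshold, with 14 higher and 2 lower at an unadjusted p under 0.05. No gene at all was called in that blocked shARF vs Ctrl fit, so its 0 says nothing about the members. In these pairwise comparisons 2 numbers are shared, so 4 libraries carry the blocked estimate, which leaves few degrees of freedom. The block could not be fitted for Both vs shARF and Both vs MLN, which share 1 number. Where a cause is not given, the cause was not tested. The unknown depth leaves counting error of low genes such as PSMG4 unmeasured.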
